A study of Mus musculus with 9 samples.

Results

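The mitosis and G2/M genes described here are 50 genes whose products carry a cell from the end of G2 through chromosome segregation to cytokinesis. They were chosen by symbol, as genes of mitosis and the G2 to M step, and all 50 were found among the 14670 genes of the expression table. The table comes from total RNA of mouse cerebral cortex taken at embryonic day 16.5 (E16.5), microdissected and sequenced in 9 libraries. The purpose was to compare cortex lacking *Fzd3* or *Celsr3*, which encode a Frizzled receptor and a cadherin receptor of the planar cell polarity pathway, with control cortex. The groups were 3 libraries labelled *Fzd3* -/- (*Fzd3* mutants, numbered 1, 2 and 3), 3 labelled *Celsr3* -/- (*Celsr3* mutants, numbered 1, 2 and 4) and 3 labelled +/+ (controls, numbered 1, 2 and 3). The paper describes the controls as littermates that were heterozygous or wild type, and the mutants as mice of mixed C57Bl/6 and CD1 descent. It also states that exon 3 is missing from the *Fzd3* mutant allele, and the labels name no Cre or conditional allele for these samples. The labels name Trizol for the RNA, whereas the paper names an RNeasy kit. The paper describes replicate tissue of each genotype for sequencing and several animals in every animal experiment, without tying each library to a single animal. The P values below set differences between genotypes against the spread between these libraries.

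Values are in CPM, a gene's share of the reads on genes scaled to a common library total, as deposited by the authors. The column of each library moved in steps of a single size, and if that step is 1 read, the listed genes held 52266343, 61637621 and 39857305 reads in the control libraries, 42963627, 45848829 and 52249430 in those of *Fzd3* mutants and 60333846, 54974978 and 69600589 in those of *Celsr3* mutants. The lowest value of any of the 50 genes was 8.27 CPM, for *Nek2* in *Fzd3* mutant library 1, which is 356 reads on that reading. Over the set, the median SD of log2 values between libraries was 0.11 for controls, 0.15 for *Fzd3* mutants and 0.13 for *Celsr3* mutants (n = 3 each). Differences are on the scale of log2(CPM + 0.5) and were tested in limma, a linear model fitted to each gene. A gene passed, or was called, where its p, adjusted over all genes tested (Benjamini-Hochberg), was under 0.05.

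In dividing cells, the kinase CDK1 bound to cyclin A or cyclin B starts mitosis, and Polo-like and Aurora kinases then build the spindle and attach chromosomes to it. The spindle checkpoint holds back the anaphase-promoting complex until every kinetochore is attached, after which CDC20 lets it destroy cyclin B and securin, sister chromatids part and the cell divides. Most of these genes are transcribed late in the cell cycle and are silent in neurons, so in the embryonic cortex their RNA comes mainly from the progenitors of the ventricular and subventricular zones. In bulk tissue, fewer dividing cells and less of this RNA per cell cannot be told apart.

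The mutated genes were read first. *Celsr3* (chromosome 9 of GRCm38, 108826320 to 108852969, plus strand) stood at 196, 243 and 214 CPM in the control libraries, 253, 213 and 255 CPM in the *Fzd3* mutant libraries and 122, 139 and 118 CPM in the *Celsr3* mutant libraries. It fell in the *Celsr3* mutants, with a log2 difference of -0.78 (95% interval -0.98 to -0.58, limma adjusted p = 0.0018), and was not lost. *Fzd3* (chromosome 14, 65192449 to 65262463, minus strand) stood at 58.0, 67.7 and 46.9 CPM in the control libraries, 46.5, 39.8 and 59.6 CPM in the *Fzd3* mutant libraries and 52.1, 61.1 and 54.8 CPM in the *Celsr3* mutant libraries. The *Fzd3* values of *Fzd3* mutants and controls overlapped (log2 difference -0.24, limma adjusted p = 0.24), and the table gives 1 value per gene, so the loss of an exon cannot be read from it.

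The tissue label was checked against marker genes. The neuron markers *Dcx* and *Map2* were the highest of their list, at 1917 ± 67.4 and 1534 ± 57.5 CPM in controls (SD, n = 3), and *Neurod6* and *Tbr1* of cortical excitatory neurons stood at 903 ± 28.9 and 339 ± 14.0 CPM. The radial glia markers *Ptprz1* and *Vim* stood at 675 ± 34.3 and 483 ± 18.2 CPM, and *Eomes* of basal progenitors at 178 ± 15.5 CPM. Markers of other cells were present at lower levels, apart from globins: *Dlx1* of interneurons at 89.4 ± 7.53, *Kdr* of endothelium at 31.6 ± 0.587, *Csf1r* of microglia at 12.9 ± 1.14 and *Hba-a1* of red blood cells at 589 ± 44.3 CPM (SD, n = 3). No defining marker measured was at 0.

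All 50 genes were measured in every library. Summed over the 50, the mitosis genes took 2691, 2805 and 2438 CPM in control, 1482, 1564 and 1779.8 CPM in *Fzd3* mutant and 2366, 2620.5 and 2801 CPM in *Celsr3* mutant libraries. In reads per 10000 on listed genes, that is 26.7, 27.7 and 24.4 for controls, 14.9, 15.8 and 17.8 for *Fzd3* mutants and 23.5, 26.3 and 28.3 for *Celsr3* mutants. The 3 *Fzd3* mutant sums lay below the 6 others, at 60.8% of the control mean, while the *Celsr3* mutant sums ran across the control range at 98.2%. *Top2a*, *Mki67* and *Smc4* had the highest CPM of the set. Levels of different genes were compared per kb of exon, taken over all annotated transcripts of a gene, so their order depends in part on annotation. The highest means over the 9 libraries were *Top2a* at 27.9, *Pbk* at 22.7 and *Smc4* at 22.6 CPM per kb. The median gene stood at 7.69 and the lowest, *Espl1*, at 2.13 CPM per kb.

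**Figure D1:**
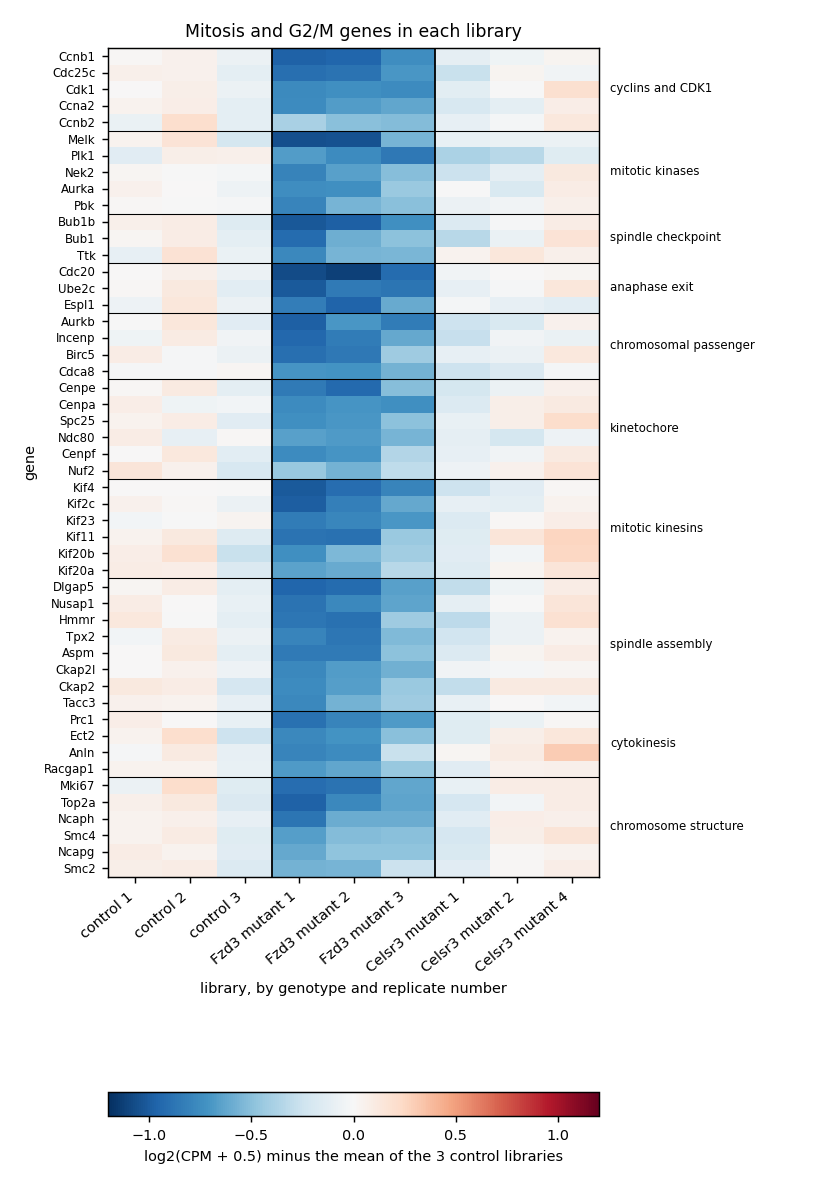
Each row is a gene, grouped by role, and each column a library; color gives log2(CPM + 0.5) minus the mean of the 3 control libraries of that gene. The 3 *Fzd3* mutant columns are low for all 50 genes, whereas control and *Celsr3* mutant columns vary around 0.

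The promoters of these genes are known to share a pair of short elements, the cell cycle homology region (CHR), read here as TTTGAA or TTCGAA, and the CCAAT box. Both were searched on both strands in RefSeq promoters, from 250 bases before to 50 bases after the start site (build GRCm38.p6), of which there were 32851 for 27025 genes. An entry was found for 41 of the 50 genes (43 entries), and *Aurkb*, *Ccna2*, *Kif20a*, *Tpx2*, *Dlgap5*, *Cdc25c*, *Incenp*, *Pbk* and *Smc4* had none. The CHR letters were present for 32 of 41 genes (78.0%), against 5854 of 27025 genes (21.7%) over all promoters. CCAAT was present for 31 of 41 (75.6%), against 11096 of 27025 (41.1%). Both occurred for 28 of 41 (68.3%), against 2328 of 27025 (8.61%), and matches of the 2 motifs overlapped in 1 entry of the set. The CHR match lay close to the start: 29 of 41 genes (70.7%) had one between base -60 and the end of the window, against 1836 of 27025 (6.79%).

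Bases -120 to -1 before the start of 6 genes are printed 5′ to 3′ on the strand of the gene, to show how the elements are spaced upstream of the 5 genes with the smallest adjusted p in *Fzd3* mutants and, with *Ccnb1* among them, of its partner *Cdk1*. Capitals mark CHR letters (TTTGAA or TTCGAA, or TTCAAA and TTCGAA on the other strand) and CCAAT letters (CCAAT, or ATTGG on the other strand), the sequences are from RefSeq on GRCm38.p6, and for *Prc1* the entry with the later start was used.
Cdc20 (chr4:118437344-118437463, minus strand): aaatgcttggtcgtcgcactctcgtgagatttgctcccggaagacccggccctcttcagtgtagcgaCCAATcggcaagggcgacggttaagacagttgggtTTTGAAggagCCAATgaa
Ccnb1 (chr13:100786487-100786606, minus strand): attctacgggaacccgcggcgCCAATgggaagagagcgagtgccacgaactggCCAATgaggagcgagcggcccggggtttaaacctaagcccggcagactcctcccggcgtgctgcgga
Kif4 (chrX:100625945-100626064, plus strand): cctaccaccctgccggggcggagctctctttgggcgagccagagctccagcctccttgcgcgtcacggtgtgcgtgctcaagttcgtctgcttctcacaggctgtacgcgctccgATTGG
Prc1 (chr7:80294356-80294475, plus strand): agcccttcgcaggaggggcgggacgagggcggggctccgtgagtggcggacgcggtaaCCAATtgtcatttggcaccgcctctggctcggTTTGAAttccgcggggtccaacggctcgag
Ube2c (chr2:164769809-164769928, plus strand): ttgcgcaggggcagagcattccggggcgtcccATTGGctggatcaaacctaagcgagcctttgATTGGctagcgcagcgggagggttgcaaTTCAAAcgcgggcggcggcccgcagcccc
Cdk1 (chr10:69352913-69353032, minus strand): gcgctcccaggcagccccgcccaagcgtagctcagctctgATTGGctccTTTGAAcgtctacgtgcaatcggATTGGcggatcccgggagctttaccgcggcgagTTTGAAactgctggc

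In the *Cdc20* promoter, the CHR begins at base -18, between CCAAT boxes at -53 and -8. *Ube2c* carries CCAAT on the other strand at -88 and -57 and a CHR on that strand at -29, and *Prc1* carries CCAAT at -62 and a CHR at -30. *Cdk1* has a pair of CHR matches, at -71 and -15, with CCAAT on the other strand at -80 and -48. *Kif4* has CCAAT on the other strand at -5, and its CHR, at 19, lies past the start and outside the printed bases. Further CCAAT matches before the printed bases begin at -152 for *Kif4* and, on the other strand, at -208 for *Cdk1*. For *Ube2c* they begin at -228, -186 and -155 and, on the other strand, at -183. *Ccnb1* has CCAAT boxes at -99 and -67 and none of the CHR letters in its window. Those letters were also absent from the windows of *Nek2*, *Melk*, *Birc5*, *Cenpe*, *Nuf2*, *Nusap1*, *Tacc3* and *Ncaph*. A match is a description of letters and not of a bound site.

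**Figure D2:**
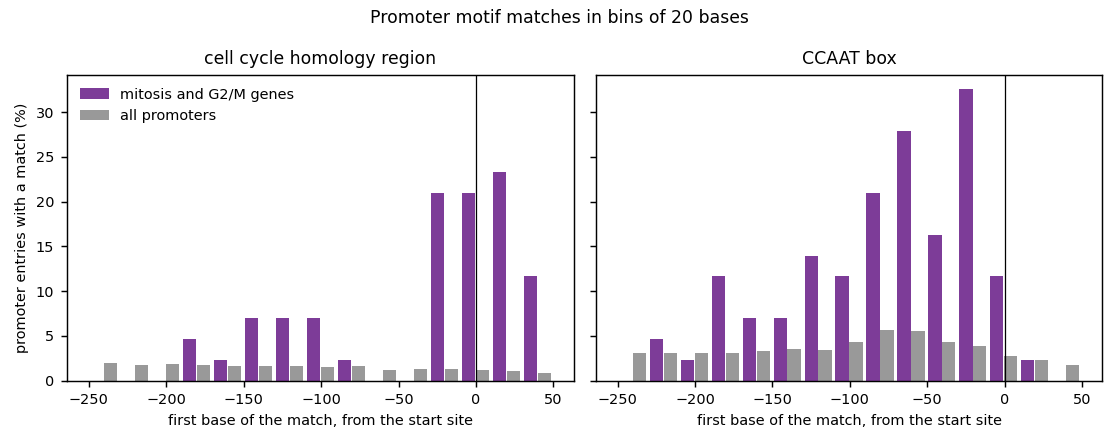
Share of promoter entries (y axis, %) whose match begins in each bin of 20 bases from the start site (x axis, bases), for the 43 entries of the mitosis and G2/M genes and for all 32851 entries. In the set, CHR matches are most frequent in the bins from -30 to 29, around the start site, and over all promoters they are infrequent in every bin.

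The first comparison asks how these genes stood in *Fzd3* mutant cortex. All 50 fell. The 3 *Fzd3* mutant libraries lay below the 3 control libraries for 50 of 50 genes, a pattern seen for 22.2% of all genes, and 50 of 50 passed the limma threshold as lower, against 14.8% of all genes tested. None of the 50 was higher by that test, against 15.0% of all genes, and 0 had an unadjusted p under 0.05 in that direction. The median gene stood at 60.2% of its control mean, from 48.2% for *Cdc20* to 73.0% for *Nuf2*. The median log2 difference was -0.73, beside -0.00056 for all genes. The quartiles of the differences were -0.80 and -0.62, with 47 of 50 genes under -0.5 and 1 under -1. Limma adjusted p ran from 1.6e-06 (*Cdc20*) to 0.0082 (*Kif20b*), and the 95% interval nearest to 0 ended at -0.23 (*Nuf2*).

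**Figure D3:**
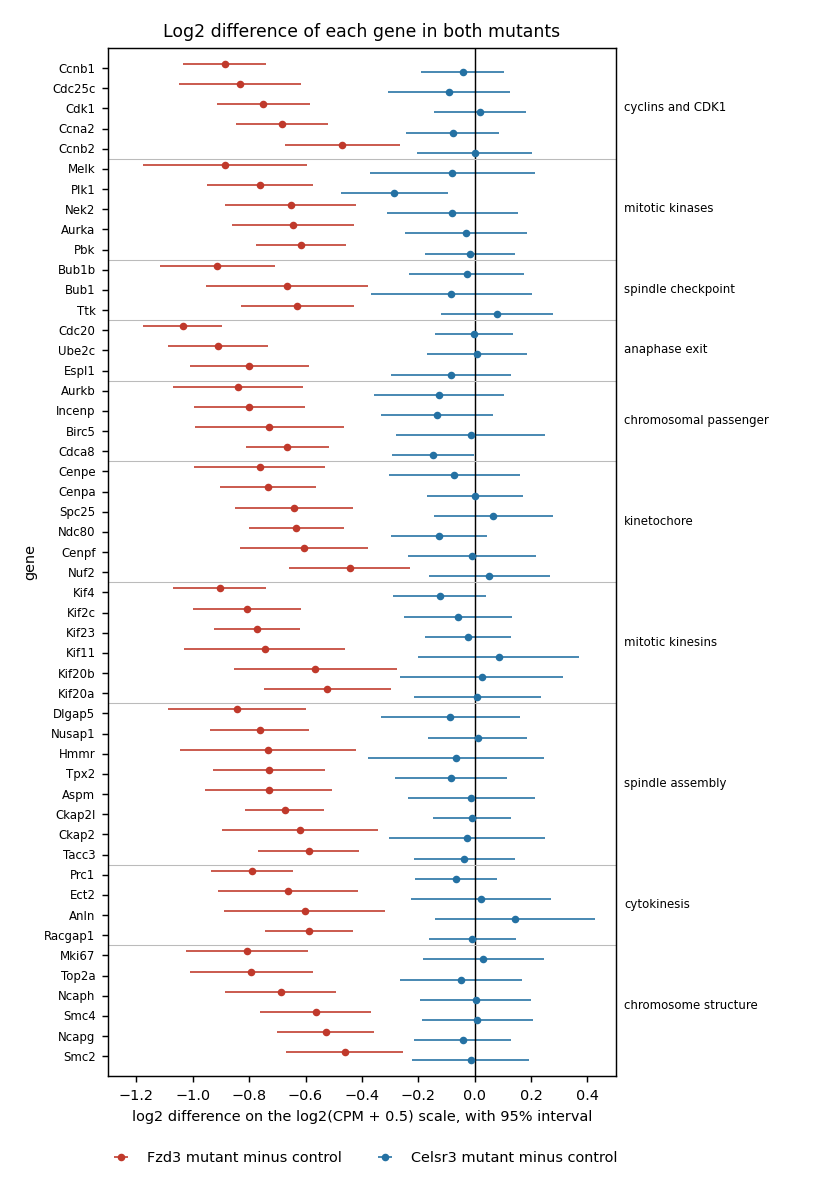
Log2 difference from control (x axis, log2(CPM + 0.5) scale) of each gene (y axis, grouped by role) in *Fzd3* mutants and *Celsr3* mutants; points are limma estimates from 3 libraries per genotype and bars their 95% intervals. All 50 *Fzd3* intervals lie below 0, and 48 of 50 *Celsr3* intervals include 0.

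The cyclins and CDK1 drive entry into mitosis. *Cdk1*, the kinase itself, stood at 48.4, 50.8 and 46.1 CPM in the control libraries, 28.4, 28.9 and 28.5 CPM in the *Fzd3* mutant libraries and 44.2, 48.1 and 55.4 CPM in the *Celsr3* mutant libraries. *Ccnb1*, the B-type cyclin that activates it in mitosis, stood at 69.6, 71.4 and 65.5 CPM in the control libraries, 34.9, 35.4 and 40.9 CPM in the *Fzd3* mutant libraries and 63.7, 66.2 and 70.5 CPM in the *Celsr3* mutant libraries. *Ccna2*, the cyclin of S phase and G2, stood at 91.0, 93.1 and 81.2 CPM in the control libraries, 52.0, 55.1 and 57.3 CPM in the *Fzd3* mutant libraries and 77.2, 81.2 and 93.2 CPM in the *Celsr3* mutant libraries. For each of the 3 genes, the highest *Fzd3* mutant library was below the lowest library of the other genotypes, and the *Cdk1* values of the *Fzd3* mutants were nearly equal. The log2 difference from control was -0.89 for *Ccnb1* (95% interval -1.03 to -0.74, limma adjusted p = 8.8e-06), -0.75 for *Cdk1* (adjusted p = 6.4e-05) and -0.68 for *Ccna2* (adjusted p = 0.00011). It was -0.83 for *Cdc25c*, the phosphatase that switches CDK1 on, and -0.47 for *Ccnb2*, the other B-type cyclin. *Ccnb2* had among the smallest differences of the set, next to its relative *Ccnb1* with among the largest.

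Of the mitotic kinases, *Plk1* acts at centrosomes, kinetochores and the midbody, and stood at 23.9, 27.6 and 27.4 CPM in the control libraries, 16.3, 15.3 and 14.3 CPM in the *Fzd3* mutant libraries and 20.1, 20.8 and 23.7 CPM in the *Celsr3* mutant libraries. *Aurka*, the Aurora kinase of centrosomes and spindle poles, stood at 20.3, 19.7 and 18.8 CPM in the control libraries, 11.5, 11.5 and 14.2 CPM in the *Fzd3* mutant libraries and 19.6, 17.2 and 20.9 CPM in the *Celsr3* mutant libraries. *Pbk*, a kinase active in mitosis, stood at 46.5, 46.1 and 45.8 CPM in the control libraries, 26.4, 31.2 and 32.5 CPM in the *Fzd3* mutant libraries and 43.9, 44.8 and 48.0 CPM in the *Celsr3* mutant libraries. In all 3, the control and *Fzd3* mutant libraries were apart, and the *Pbk* controls were nearly equal. The log2 differences were -0.76 for *Plk1*, -0.64 for *Aurka* and -0.62 for *Pbk* (limma adjusted p = 0.00013, 0.0008 and 0.00017). They were -0.88 for *Melk*, a kinase of dividing progenitors, and -0.65 for *Nek2*, which separates centrosomes. *Pbk* lies 543 kb from *Fzd3* on chromosome 14, and the next gene of the set on that chromosome, *Dlgap5*, 17.8 Mb away. Whether position near the mutated gene has a part in the *Pbk* difference was not tested.

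The spindle checkpoint is represented by 3 kinases of the kinetochore. *Bub1b* (BubR1), which binds and holds CDC20, stood at 61.2, 62.3 and 52.7 CPM in the control libraries, 28.6, 29.4 and 35.0 CPM in the *Fzd3* mutant libraries and 52.3, 58.0 and 62.5 CPM in the *Celsr3* mutant libraries. Its *Fzd3* mutant values ended well below the lowest of the 6 other libraries, with a log2 difference of -0.91 (95% interval -1.12 to -0.71, limma adjusted p = 7.1e-05). *Bub1*, which recruits BubR1, fell with a log2 difference of -0.67 and *Ttk* (Mps1), which starts checkpoint signaling, with one of -0.63.

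The genes of anaphase and mitotic exit had the lowest median of the 10 role groups, at log2 -0.91. *Cdc20* (chromosome 4), the activator of the anaphase-promoting complex and target of the checkpoint, stood at 41.0, 42.6 and 39.0 CPM in the control libraries, 19.2, 18.6 and 21.4 CPM in the *Fzd3* mutant libraries and 39.7, 41.1 and 41.6 CPM in the *Celsr3* mutant libraries. The means were 40.9 ± 1.81 CPM for controls, 19.7 ± 1.47 for *Fzd3* mutants and 40.8 ± 0.954 for *Celsr3* mutants (SD, n = 3). The *Fzd3* mutants were near 48.2% of control in mean, and *Celsr3* mutants and controls ran through each other. With a log2 difference of -1.04 (95% interval -1.18 to -0.90, limma adjusted p = 1.6e-06), *Cdc20* ranked 36 of 14670 genes by p, the highest rank in the set. *Ube2c*, the ubiquitin-conjugating enzyme of the same complex, stood at 41.3, 44.6 and 37.4 CPM in the control libraries, 20.1, 22.5 and 22.1 CPM in the *Fzd3* mutant libraries and 38.3, 40.5 and 45.0 CPM in the *Celsr3* mutant libraries. Again no *Fzd3* mutant library came near the others, with a log2 difference of -0.91 (limma adjusted p = 2.9e-05). *Espl1* (separase, which cuts cohesin) had one of -0.80. The promoters printed for *Cdc20* and *Ube2c* hold both motifs.

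The chromosomal passenger complex corrects faulty attachments and later acts at the cleavage site. *Aurkb*, its kinase, stood at 22.9, 25.4 and 20.9 CPM in the control libraries, 11.4, 14.0 and 12.6 CPM in the *Fzd3* mutant libraries and 19.2, 20.2 and 23.9 CPM in the *Celsr3* mutant libraries. *Birc5* (survivin) stood at 19.6, 18.2 and 17.5 CPM in the control libraries, 9.59, 9.96 and 13.6 CPM in the *Fzd3* mutant libraries and 17.2, 17.5 and 20.1 CPM in the *Celsr3* mutant libraries. *Cdca8* (borealin) stood at 42.4, 42.6 and 43.7 CPM in the control libraries, 26.1, 25.9 and 28.8 CPM in the *Fzd3* mutant libraries and 36.1, 38.0 and 42.2 CPM in the *Celsr3* mutant libraries. In each, no *Fzd3* mutant library reached the controls, although library 3 of the *Fzd3* mutants was closest for *Birc5*. The log2 differences were -0.84 for *Aurkb*, -0.73 for *Birc5*, -0.66 for *Cdca8* and -0.80 for *Incenp*, the scaffold of the complex (limma adjusted p = 0.00023, 0.0013, 6.4e-05 and 0.00013).

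**Figure D4:**
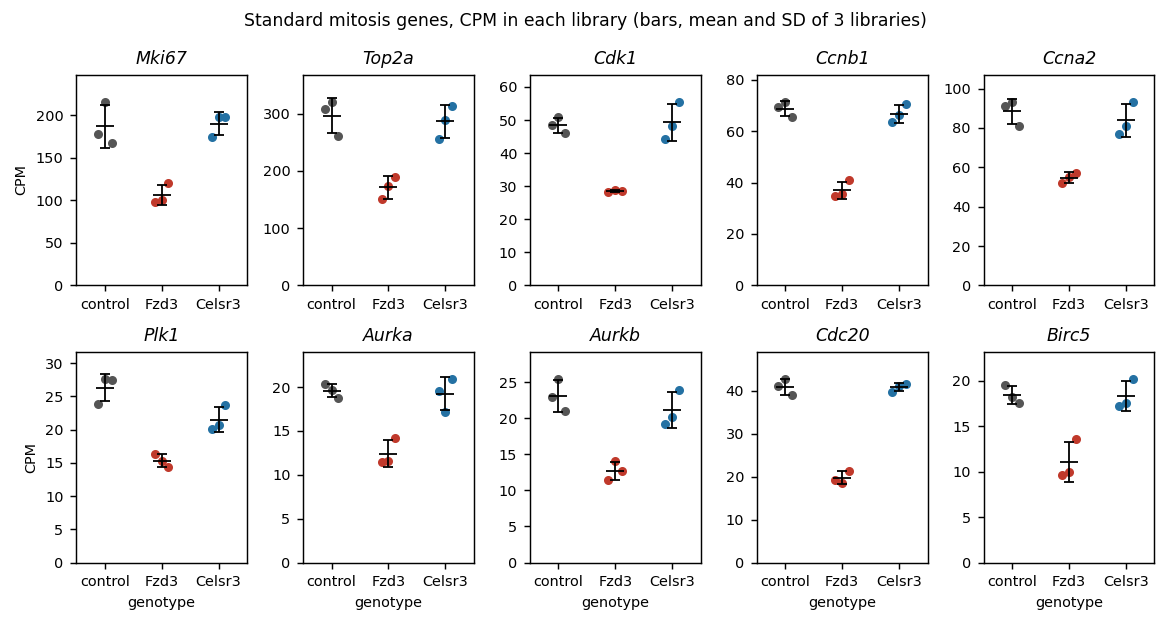
CPM (y axis, from 0) of 10 standard mitosis genes in each library by genotype (x axis); points are libraries and black marks the mean and SD of 3 libraries. In every panel the 3 *Fzd3* mutant points lie below the 6 others.

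At the kinetochore, *Nuf2* of the Ndc80 complex, which grips the microtubule end, had the smallest difference of the 50 genes. It stood at 34.9, 32.8 and 27.6 CPM in the control libraries, 23.0, 21.1 and 25.4 CPM in the *Fzd3* mutant libraries and 30.2, 32.8 and 35.6 CPM in the *Celsr3* mutant libraries. The gap between the groups was narrow here, 25.4 against 27.6 CPM for the nearest libraries, and the log2 difference was -0.44 (95% interval -0.66 to -0.23, limma adjusted p = 0.0063). Its partners *Ndc80* and *Spc25* had log2 differences of -0.63 and -0.64. The difference was -0.73 for *Cenpa*, the histone variant that marks the centromere, -0.76 for *Cenpe*, a kinetochore motor, and -0.61 for *Cenpf*, a large kinetochore protein.

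Among the mitotic kinesins, *Kif4* works on chromosome arms and the central spindle and stood at 46.7, 46.6 and 46.3 CPM in the control libraries, 22.9, 24.4 and 26.6 CPM in the *Fzd3* mutant libraries and 39.0, 42.2 and 47.1 CPM in the *Celsr3* mutant libraries. *Kif23*, the motor of centralspindlin, stood at 35.9, 36.7 and 37.4 CPM in the control libraries, 20.3, 21.1 and 22.4 CPM in the *Fzd3* mutant libraries and 32.6, 37.0 and 38.8 CPM in the *Celsr3* mutant libraries. The controls of *Kif4* were nearly equal, and for both genes a wide gap parted the *Fzd3* mutant libraries from the 6 others. The log2 difference was -0.91 for *Kif4* (limma adjusted p = 1.7e-05) and -0.77 for *Kif23* (limma adjusted p = 3.2e-05). *Kif20b*, a kinesin of late cytokinesis, had the largest adjusted p of the set and stood at 28.0, 30.1 and 21.9 CPM in the control libraries, 15.7, 18.1 and 19.6 CPM in the *Fzd3* mutant libraries and 24.0, 25.8 and 31.5 CPM in the *Celsr3* mutant libraries. Its control library 3 stood near *Fzd3* mutant library 3 (21.9 and 19.6 CPM), and its log2 difference was -0.57 (95% interval -0.85 to -0.28, limma adjusted p = 0.0082). The difference was -0.81 for *Kif2c*, a microtubule depolymerase, -0.74 for *Kif11*, which pushes spindle poles apart, and -0.52 for *Kif20a*, of the central spindle.

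The 8 genes of spindle assembly had a median of log2 -0.73 and a range of -0.84 to -0.59. *Ckap2l*, a spindle protein of neural progenitors, stood at 33.4, 34.7 and 32.1 CPM in the control libraries, 19.3, 20.8 and 22.2 CPM in the *Fzd3* mutant libraries and 32.4, 33.1 and 34.0 CPM in the *Celsr3* mutant libraries. The controls and the *Celsr3* mutants each lay close together, all above the *Fzd3* mutants, and *Ckap2l* fell with a log2 difference of -0.67 (95% interval -0.81 to -0.53, limma adjusted p = 4.3e-05). *Aspm*, a spindle pole protein whose human gene is mutated in primary microcephaly, fell with a log2 difference of -0.73, and *Tpx2*, which activates Aurora A on spindle microtubules, with one of -0.73. *Dlgap5* and *Nusap1*, which stabilize spindle microtubules, had differences of -0.84 and -0.76. The difference was -0.73 for *Hmmr* and -0.62 for *Ckap2*, both microtubule-associated, and -0.59 for *Tacc3*, which bridges kinetochore fibers.

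In cytokinesis, *Prc1* bundles the central spindle and stood at 88.7, 84.1 and 78.8 CPM in the control libraries, 44.9, 48.1 and 52.0 CPM in the *Fzd3* mutant libraries and 75.7, 79.4 and 84.9 CPM in the *Celsr3* mutant libraries. *Anln* (anillin), which scaffolds the contractile ring, stood at 24.8, 26.9 and 23.4 CPM in the control libraries, 14.2, 14.6 and 20.7 CPM in the *Fzd3* mutant libraries and 25.4, 26.8 and 30.9 CPM in the *Celsr3* mutant libraries. For *Prc1* the *Fzd3* mutant libraries were far below all others, whereas for *Anln* library 3 of the *Fzd3* mutants, at 20.7 CPM, came near the lowest control, at 23.4 CPM. The log2 difference was -0.79 for *Prc1* (limma adjusted p = 1.9e-05) and -0.60 for *Anln* (limma adjusted p = 0.0055). *Ect2* and *Racgap1*, which switch on the ring through RhoA, had differences of -0.66 and -0.59.

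The genes of chromosome structure include those with the most reads. *Top2a*, which untangles sister chromatids, stood at 308, 320.5 and 262 CPM in the control libraries, 151, 173 and 189.9 CPM in the *Fzd3* mutant libraries and 256, 289.5 and 314 CPM in the *Celsr3* mutant libraries. *Mki67*, which coats mitotic chromosomes and encodes the proliferation marker Ki-67, stood at 177, 215 and 168 CPM in the control libraries, 98.4, 100.4 and 120.2 CPM in the *Fzd3* mutant libraries and 175, 198 and 198 CPM in the *Celsr3* mutant libraries. *Smc4*, a core subunit of condensin, stood at 136, 141 and 119 CPM in the control libraries, 82.8, 91.3 and 92.4 CPM in the *Fzd3* mutant libraries and 115, 138 and 146 CPM in the *Celsr3* mutant libraries. In all 3 the lowest of the 6 control and *Celsr3* mutant libraries stayed above the highest *Fzd3* mutant library. The log2 difference was -0.81 for *Mki67*, -0.79 for *Top2a* and -0.56 for *Smc4* (limma adjusted p = 0.0002, 0.00023 and 0.001). The other condensin genes among the 50 fell too, with -0.69 for *Ncaph*, -0.53 for *Ncapg* and -0.46 for *Smc2*.

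By role, the medians ran from log2 -0.91 for anaphase and exit to -0.63 for cytokinesis and -0.63 for chromosome structure, with -0.75 for cyclins and CDK1, -0.76 for the passenger complex and -0.64 for the kinetochore. Differences between these medians were not tested. Across the 50 genes, the difference did not track abundance (Spearman rho 0.01 with mean CPM, across genes, which are not independent replicates). The genes lie on 17 chromosomes. Among the 41 genes with a promoter entry, the median difference was -0.70 with a CHR match and -0.73 without. It was -0.73 with CCAAT and -0.66 without, and -0.73 with both motifs and -0.69 for the rest, and all 41 passed as lower with or without these letters. Outside the set, genes with a CHR match were lower in *Fzd3* mutants in 17.2% of cases, against 14.2% without, and genes with CCAAT in 16.5%, against 13.3%. With both motifs it was 138 of 655 genes (21.1%), against 1306 of 9177 without both (14.2%). Only the 50 genes were left out here, so other genes of mitosis, G2/M and S phase could be among those compared.

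The second comparison asks the same of *Celsr3* mutant cortex. Here the 50 genes stood near their control levels. None passed the limma threshold as lower, against 0.177% of all genes, and 0 as higher, against 0.130%; 2 genes, *Plk1* and *Cdca8*, had an unadjusted p under 0.05, both lower, as had 800 of all genes in either direction. These 2 were also the only genes of the set whose *Celsr3* mutant libraries all lay below the controls, 2 of 50 beside 5.27% of all genes. For *Plk1* the nearest libraries were 23.7 and 23.9 CPM, a log2 difference of -0.28 (95% interval -0.47 to -0.10, limma adjusted p = 0.56), and for *Cdca8* 42.2 and 42.4 CPM, a difference of -0.15 (95% interval -0.29 to -0.0015, limma adjusted p = 0.91).

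The median log2 difference over the set was -0.03, with 34 of 50 negative, beside -0.0022 for all genes, and the median gene stood at 98.5% of control. *Kif4* had the next smallest p after these 2, with a log2 difference of -0.12 (limma adjusted p = 0.99), and *Anln* the highest difference, at 0.14 (95% interval -0.14 to 0.43). Over the 50 genes, the 95% intervals reached as low as -0.47 (*Plk1*) and as high as 0.43 (*Anln*). Each is for a single gene, with no allowance for the number of genes. Differences of that size were called in *Fzd3* mutants, such as -0.47 for *Ccnb2*. Leaving out 1 library at a time moved the median between -0.09 (without control library 3) and 0.03 (without *Celsr3* mutant library 1), and 0 of 50 passed in each case. In each of the 50, the *Celsr3* interval lay above the point difference of that gene in *Fzd3* mutants. Since both comparisons use the same 3 control libraries, their values are given side by side and not as separate support.

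The third comparison sets the mutants against each other, which is also the test of whether the effects of the mutations on these genes differ. All 50 genes were lower in *Fzd3* than in *Celsr3* mutants. The 3 *Fzd3* mutant libraries lay below the 3 *Celsr3* mutant libraries for 50 of 50 genes, against 22.6% of all genes, and limma called 50 of 50 lower, against 14.3%, and 0 higher, against 15.3%, with 0 at an unadjusted p under 0.05 in that direction. The median log2 difference was -0.69 (range -1.03 to -0.45), beside -0.0047 for all genes. *Cdc20* differed most, by -1.03 (95% interval -1.17 to -0.89, limma adjusted p = 2.5e-06), then *Ube2c* by -0.92 and *Bub1b* by -0.88. *Plk1*, which was lowest of the set in *Celsr3* mutants relative to control, had a difference of -0.48 between the mutants against -0.76 between *Fzd3* mutants and control. With the replicate number as a block, 46 of 50 were called lower between the mutants, against 6.26% of all genes. *Nuf2*, *Kif20b*, *Smc2* and *Ckap2* were not called in that fit (limma adjusted p from 0.053 to 0.066).

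Libraries of a genotype were not alike, and the genes moved with them. Control library 3 was the lowest control for 43 of 50 genes, as it was for 35.5% of all genes, and its median gene stood at 92.5% of the control mean, against 102% and 105% in libraries 1 and 2. *Fzd3* mutant library 3 was the highest of its genotype for 43 genes, as for 36.3% of all genes, with medians of 56.5%, 59.3% and 67.1% of the control mean in libraries 1 to 3. *Celsr3* mutant library 1 was the lowest for 46 genes and library 4 the highest for 42, as for 35.6% and 33.5% of all genes, with medians of 90.2%, 98.2% and 106% in libraries 1, 2 and 4. The 50 genes thus shared their rank within a genotype and are not 50 independent measurements. The highest *Fzd3* mutant library was still below the lowest control and *Celsr3* mutant library for every one of them.

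Other genes of mitosis were read from lists beside the 50, and their differences were not tested against those of the 50. Over 4 further lists of kinetochore, checkpoint, spindle and condensin or cohesin genes, 61 of 95 analysed genes were lower in *Fzd3* mutants and 1 was higher by limma, with a median log2 difference of -0.31. Over all genes, for comparison with this and the lists below, 14.8% were lower and 15.0% higher in *Fzd3* mutants. In *Celsr3* mutants limma called 0 of these 95, and 0 had an unadjusted p under 0.05. With 0.177% of all genes lower and 0.130% higher there, 0 calls is near the share of all genes. Of other kinetochore genes 18 of 30 were lower, among them *Spdl1*, which brings dynein to the kinetochore (-0.83, 7.44, 6.95 and 7.88 CPM in control, 3.25, 4.06 and 4.66 CPM in *Fzd3* mutant and 6.48, 6.44 and 6.89 CPM in *Celsr3* mutant libraries), *Spc24* of the Ndc80 complex (-0.78) and *Ska2* (-0.23), while *Cenpc1*, the most abundant of them, had a difference of -0.07 (limma adjusted p = 0.35). Of other checkpoint and anaphase-promoting complex genes 11 of 22 were lower, such as *Sgol1*, which protects cohesin at the centromere (-0.70), and *Pttg1*, the separase inhibitor securin (-0.66). The highest of that list, the core subunits *Anapc5* and *Anapc1* of the complex, were level, with differences of 0.02 and -0.07 (limma adjusted p = 0.82 and 0.21).

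Of the other kinesin, spindle and cytokinesis genes, 28 of 29 listed could be analysed and 23 were lower. *Haus4*, of the augmin complex that branches spindle microtubules, had the largest fall of all these lists, from 13.6 ± 0.823 CPM in controls to 6.08 ± 0.810 in *Fzd3* mutants (SD, n = 3), log2 -1.10 (limma adjusted p = 3.2e-05), and stood at 12.4 ± 0.382 in *Celsr3* mutants. *Kif22*, a chromosome arm kinesin, fell with a difference of -0.89. Small differences of -0.17 and -0.25 were called for *Cdk5rap2* and *Tubg1* of the centrosome (limma adjusted p = 0.044 and 0.018). The *Cdk5rap2* call was lost without control library 1 or 2, *Fzd3* mutant library 1 or 2 or any *Celsr3* mutant library (limma adjusted p up to 0.16), and the *Tubg1* call without control library 2 or 3 or *Fzd3* mutant library 1 or 2 (up to 0.075). Of 15 condensin and cohesin genes 9 were lower, with *Cdca5* (sororin) at -0.93 and the core cohesin genes *Rad21* and *Smc1a* at -0.22 and -0.22. *Ncapd2*, a condensin I subunit and partner of the *Smc2* and *Smc4* products, went the other way: it stood at 109, 116 and 102 CPM in the control libraries, 169.6, 176 and 190.5 CPM in the *Fzd3* mutant libraries and 100.2, 107 and 114 CPM in the *Celsr3* mutant libraries. All 3 *Fzd3* mutant libraries were above the 6 others, with a log2 difference of 0.71 (95% interval 0.57 to 0.85, limma adjusted p = 2.9e-05), while *Ncapg* and *Ncaph* of the same complex fell.

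Many genes that control the program were also lower. Of 16 genes of G2/M transcription 11 fell, including *Mybl2* (B-Myb) and *Foxm1*, both activators of these promoters, with log2 differences of -0.74 and -0.56, and *Rbbp4*, a histone chaperone, with one of -0.21. *Nfya*, a subunit of the factor that binds CCAAT, stood at 0.10 (limma adjusted p = 0.20). Of 20 genes of G2/M entry 16 fell, against 14.8% of all genes. *Hmgb2*, a chromatin protein of dividing cells, went from 246 ± 11.7 CPM in controls to 137 ± 12.1 in *Fzd3* mutants (SD, n = 3), a log2 difference of -0.84. *Wee1*, the kinase that holds CDK1 inactive, had one of -0.76 and *Lmnb1*, of the nuclear lamina, one of -0.38. That of *Ckap5*, a microtubule polymerase, was -0.19 (limma adjusted p = 0.021), a call lost without control library 1 or 2 or *Fzd3* mutant library 1 or 2 (up to 0.080). Limma called 0 genes of either list in *Celsr3* mutants, with 0 and 0 at an unadjusted p under 0.05. That is near the share of all genes there (0.177% lower and 0.130% higher).

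The S phase genes mark the step before. Beside 14.8% of all genes, 29 of 34 analysed (36 listed) were lower in *Fzd3* mutants and 5 did not pass. Their median was -0.48 and that of the 50 mitosis genes -0.73, a difference that was not tested. The log2 differences were -0.89 for *Tk1* (thymidine kinase), -0.98 for *Cdc6*, which loads the replicative helicase, -0.36 for *Mcm7*, of that helicase, and -0.64 for *Rrm1*, of ribonucleotide reductase. Summed S phase genes took 1674, 1689 and 1582 CPM in control, 1145, 1181 and 1247 CPM in *Fzd3* mutant and 1503, 1565 and 1629 CPM in *Celsr3* mutant libraries. Per 100 CPM of S phase genes there were 161, 166 and 154 CPM of mitosis genes for controls, 129, 132 and 143 for *Fzd3* mutants and 157, 167 and 172 for *Celsr3* mutants. The *Fzd3* mutant ratios were below the 6 others. Limma called 0 S phase genes in *Celsr3* mutants, near the share of all genes (0.177% lower and 0.130% higher). There, 6 of the 34 had an unadjusted p under 0.05, all lower, beside 380 of 14670 genes in that direction, and 28 of the 34 differences were negative.

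**Figure D5:**
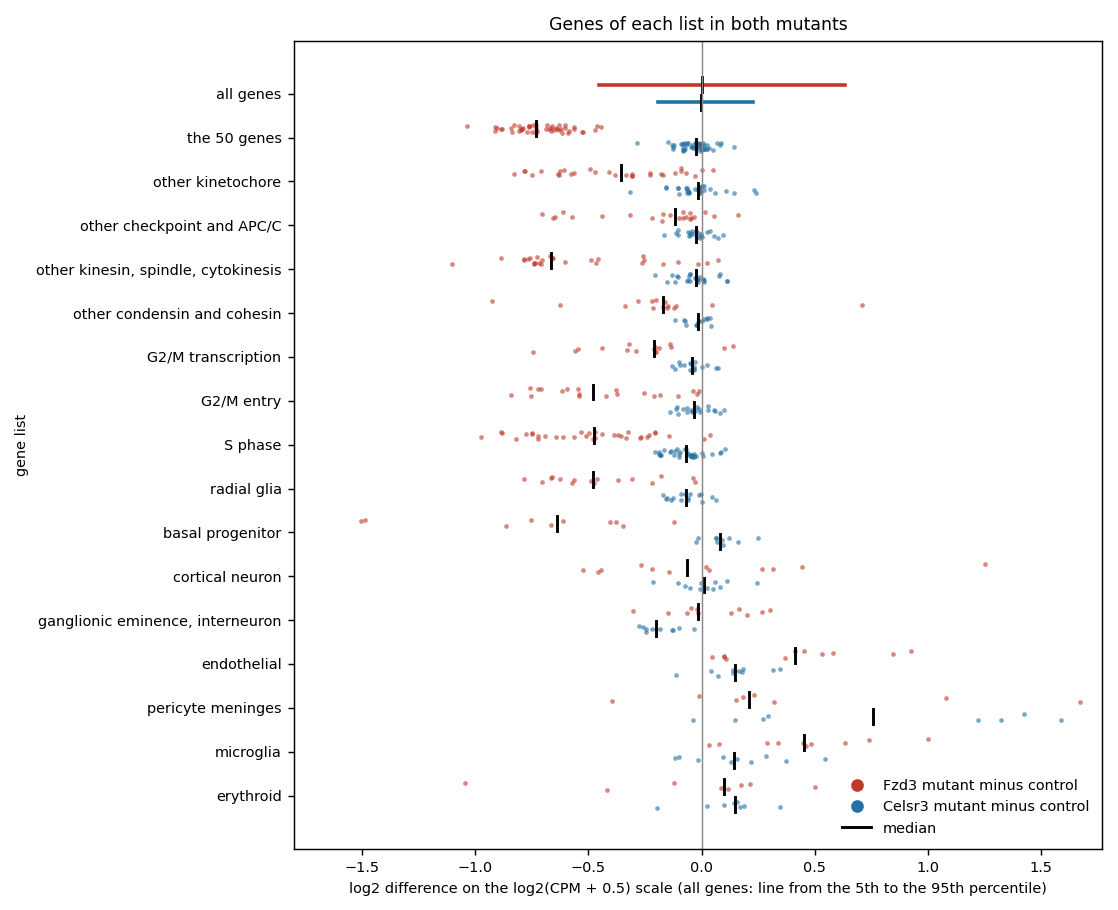
Log2 difference from control (x axis) of each gene (points) in the 50 mitosis and G2/M genes and in 15 other lists (y axis), in *Fzd3* mutants and *Celsr3* mutants; black marks are medians, and for all genes a line runs from the 5th to the 95th percentile. In *Fzd3* mutants the medians of the division and progenitor lists lie below 0, that of the 50 genes at -0.73.

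Most progenitor markers were lower too, against 14.8% of all genes. Of 16 radial glia markers 13 were lower in *Fzd3* mutants (median -0.48), with *Pax6* at -0.70, *Id4* at -0.79 and *Vim* at -0.62, whereas the 2 most abundant, *Ptprz1* and *Fabp7*, had differences of -0.04 and -0.18 (limma adjusted p = 0.65 and 0.18). Summed, the radial glia markers took 2491, 2666 and 2483 CPM in control, 2048, 2109 and 2056 CPM in *Fzd3* mutant and 2314, 2507 and 2508 CPM in *Celsr3* mutant libraries. Of 10 basal progenitor markers 9 were lower (median -0.64), such as *Eomes* at -0.67, *Nhlh1* at -1.50 and *Neurog1* at -1.49, while the most abundant of them, *Elavl4*, had a difference of -0.12 (limma adjusted p = 0.10). Their sum was 672, 697 and 610.2 CPM in control, 449, 466 and 513 CPM in *Fzd3* mutant and 653, 725 and 748 CPM in *Celsr3* mutant libraries. Both sums were below the controls in all 3 *Fzd3* mutant libraries. *Elavl4* averaged 175 CPM over the 9 libraries, a large part of the basal progenitor sum and of ratios to that sum. Which cells its RNA came from was not tested. Mitosis genes per 100 CPM of radial glia markers stood at 108, 105 and 98.2 for controls, 72.4, 74.2 and 86.5 for *Fzd3* mutants and 102, 105 and 112 for *Celsr3* mutants. Per 100 CPM of basal progenitor markers they stood at 401, 403 and 399.6, 330.4, 336 and 347 and 363, 361 and 375 in the same order, so both mutants were below controls on that ratio and *Fzd3* mutants lowest. In *Celsr3* mutants the basal progenitor sum was 107% of control and 8 of 10 differences were positive, while 14 of 16 were negative for radial glia markers. Limma called 0 genes of these 2 lists there, near the share of all genes (0.177% lower and 0.130% higher). An unadjusted p under 0.05 was found for 2 basal progenitor markers (both higher) and 2 radial glia markers (both lower). What part the progenitor share of the tissue has in the difference of the mitosis genes was not tested.

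Markers of other cells were read in the same way, beside 14.8% of all genes lower and 15.0% higher in *Fzd3* mutants. Of 12 cortical neuron markers analysed (13 listed), 6 were lower and 4 higher in *Fzd3* mutants, with *Syt4* at 1.25 and *Sox5* at -0.52; their sum, led by *Dcx*, was 8212, 8087 and 7968 CPM in control, 8691, 8356 and 8548 CPM in *Fzd3* mutant and 8354, 8145 and 7831 CPM in *Celsr3* mutant libraries. Of 11 interneuron markers (13 listed), 1 was lower, *Sp9* at -0.30 (limma adjusted p = 0.041), a call lost without control library 2 or 3, any *Fzd3* mutant library or *Celsr3* mutant library 1 or 2 (up to 0.15). Their sum, led by *Dlx1*, was 267, 274 and 299.8 CPM in control, 317, 298 and 258 CPM in *Fzd3* mutant and 271, 237 and 219 CPM in *Celsr3* mutant libraries. Of 11 endothelial markers (12 listed), 4 were higher, *Flt1* at 0.85, *Kdr* at 0.58, *Cldn5* at 0.53 and *Ly6c1* at 0.92, and the sum, led by *Slc2a1*, was 165, 166 and 167 CPM in control, 232, 218 and 193 CPM in *Fzd3* mutant and 177, 159 and 222 CPM in *Celsr3* mutant libraries. Of 10 microglia markers 4 were higher, *Trem2* at 1.00, *C1qc* at 0.74, *Csf1r* at 0.63 and *C1qa* at 0.46, and the sum, led by *Csf1r*, was 39.5, 46.0 and 44.0 CPM in control, 69.1, 65.5 and 49.3 CPM in *Fzd3* mutant and 43.9, 48.3 and 56.7 CPM in *Celsr3* mutant libraries. The *Ly6c1* call was lost without control library 2 or 3, *Fzd3* mutant library 1 or 2 or *Celsr3* mutant library 1 or 4 (limma adjusted p up to 0.16), and the *C1qc* call without control library 1 or *Fzd3* mutant library 1 or 2 (up to 0.077). The log2 differences were positive for 11 of 11 endothelial markers (median 0.41) and 10 of 10 microglia markers (median 0.45), and both sums were above all controls in each *Fzd3* mutant library. *Fzd3* mutant library 3 had the lowest sum of its genotype for endothelial and microglia markers and the highest for mitosis genes, and without it *Slc2a1*, *Cx3cr1*, *Pdgfrb* of pericytes and *Lhx6* of interneurons passed as well (limma adjusted p = 0.026, 0.013, 0.014 and 0.027).

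For pericytes and meninges, 0 of 8 analysed markers (10 listed) passed limma in *Fzd3* mutants, with 3 at an unadjusted p under 0.05, and the sum, led by *Rgs5*, was 66.1, 68.7 and 62.2 CPM in control, 83.6, 85.4 and 70.4 CPM in *Fzd3* mutant and 73.8, 68.1 and 243 CPM in *Celsr3* mutant libraries. *Celsr3* mutant library 4 stood apart there, with *Col3a1* at 87.6 CPM against 6.86 and 4.95 CPM in libraries 1 and 2. Without library 4, 0 of the 50 mitosis genes passed in *Celsr3* mutants, as with it. Their log2 differences from control were then negative for all but *Kif11*, *Mki67*, *Ttk* and *Anln*. An unadjusted limma p under 0.05 was found for *Plk1* (-0.35), *Cdca8* (-0.21), *Kif4* (-0.20) and *Ccna2* (-0.16). Of 8 erythroid markers (11 listed), 1 was lower, *Hbb-y* at -1.05 (limma adjusted p = 0.033, lost without control library 1 or 2 or any *Fzd3* mutant library, up to 0.13), and the sum, led by *Hba-a1* and *Hbb-bs*, was 1767, 1919.6 and 2041 CPM in control, 2288, 2445 and 1570.2 CPM in *Fzd3* mutant and 2418, 1585 and 2539 CPM in *Celsr3* mutant libraries, with *Fzd3* mutant library 3 and *Celsr3* mutant library 2 low. Limma called 0 genes of these 6 lists in *Celsr3* mutants, near the share of all genes (0.177% lower and 0.130% higher). At an unadjusted p under 0.05 there were 3 interneuron markers (all lower), 2 neuron markers (1 lower and 1 higher), 1 endothelial, 2 pericyte or meninges and 2 microglia markers (all higher) and 0 erythroid markers. The interneuron differences were negative for 11 of 11 genes there (median -0.20). The part of these cell types in the differences of the mitosis genes was not tested. Labels give no batch, so one shared by the *Fzd3* mutant libraries cannot be told apart from genotype.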

How the data were processed

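RNA of E16.5 cortex was measured in 9 libraries, 3 per genotype. The authors deposited CPM values, the counts of reads on genes scaled to a common total with a further factor per library, in which genes of low expression had already been left out. The submitters' notes name FastQC, TopHat, TopHat2, Bowtie, Cufflinks 2.1.1 and edgeR 2.12 and the builds GRCm38 and GRCh37, with no role or order. Strand and gene annotation are not given in the sources used here. All 9 value columns were used, and 0 per-sample columns were left out.

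The values were taken to log2(CPM + 0.5) and fitted in limma 3.58.1 (R 4.3.3) with a variance trend, with all 9 libraries in one fit and 3 contrasts. Benjamini-Hochberg adjustment ran over all 14670 genes, and an adjusted p under 0.05 counted as passing. Genes needed 0.5 CPM on average over the libraries, which left out 0 genes. The fit was tested on simulated data. Tables, motif searches and figures used Python 3.11.15, numpy 2.4.6, pandas 2.3.3, scipy 1.17.1 and matplotlib 3.10.9. Gene positions and exon lengths are from GENCODE M21 on GRCm38, and promoters are from RefSeq on GRCm38.p6. Depth was read from the step between the low values of each column.

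The members and lists were chosen with earlier results of these data known. The other lists hold genes of the kinetochore, checkpoint, spindle, condensin and cohesin, G2/M transcription, G2/M entry and S phase, and markers of radial glia, basal progenitors, cortical neurons, interneurons, endothelium, pericytes and meninges, microglia and red blood cells. Genes given in every library are 10 standard markers, the 3 of highest CPM per kb, the 10 with the smallest and the 3 with the largest adjusted p in *Fzd3* mutants, and the 3 with the smallest in *Celsr3* mutants, where none passed. The other members are named with their role. Of each other list, the 2 highest in mean CPM and the 2 of largest difference past the threshold could be named. 1 item is not reported here. Genes named outside this rule, such as *Col3a1* and the called markers in counts of 5 or fewer, were chosen after their values were seen.

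Alternatives tried were pseudocounts of 1 and 0.1, a filter at 1 CPM and none, scaling by median ratios, an equal CPM total in each library, only the 6 libraries compared, the replicate number as a block, each library left out in turn, and no sharing of variances between genes.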

Additional observations from a re-analysis of the deposited data

Results flagged for a closer look

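Of the genes picked by the naming rule, 22 mitosis genes and 56 of other lists, the effects of the mutations differed for 60. For each, the test of the difference itself, *Fzd3* mutants against *Celsr3* mutants in limma, had an adjusted p under 0.05. Many were picked for a small p or a large difference in *Fzd3* mutants, whose libraries this test uses again, so the count follows in part from the choice; of all genes, 14.3% were lower and 15.3% higher. All values here are log2 differences, *Fzd3* mutant minus *Celsr3* mutant, from 3 libraries of each genotype.

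Of the mitosis and G2/M genes, 22 named by rule are among them, with limma adjusted p from 2.5e-06 to 0.0066 and the 3 *Fzd3* mutant libraries below the 3 *Celsr3* mutant libraries in each. Among cyclins and kinases the difference was -0.77 for *Cdk1*, -0.84 for *Ccnb1*, -0.61 for *Ccna2*, -0.48 for *Plk1*, -0.61 for *Aurka* and -0.60 for *Pbk*. In the checkpoint and anaphase it was -0.88 for *Bub1b*, -1.03 for *Cdc20* and -0.92 for *Ube2c*. The passenger complex had -0.71 for *Aurkb*, -0.72 for *Birc5* and -0.52 for *Cdca8*, and the kinetochore gene was -0.49 for *Nuf2*. Motor, spindle and cytokinesis genes had -0.78 for *Kif4*, -0.75 for *Kif23*, -0.59 for *Kif20b*, -0.67 for *Ckap2l*, -0.72 for *Prc1* and -0.75 for *Anln*. The genes of chromosome structure had -0.84 for *Mki67*, -0.74 for *Top2a* and -0.57 for *Smc4*.

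Of genes from other lists, 38 differed between the mutants (limma adjusted p from 3.1e-05 to 0.046). Mitosis genes outside the 50 had -0.17 for *Ska2*, -0.67 for *Spdl1*, -0.47 for *Spc24*, -0.65 for *Sgol1*, -0.49 for *Pttg1*, -0.18 for *Cdk5rap2*, -0.23 for *Tubg1*, -0.98 for *Haus4* and -0.78 for *Kif22*. Cohesin and condensin genes had -0.19 for *Rad21*, -0.15 for *Smc1a*, -0.85 for *Cdca5* and 0.74 for *Ncapd2*, of which *Ncapd2* alone was higher. Genes of G2/M control had -0.17 for *Rbbp4*, -0.61 for *Mybl2*, -0.53 for *Foxm1*, -0.16 for *Ckap5*, -0.34 for *Lmnb1*, -0.78 for *Hmgb2* and -0.72 for *Wee1*, and S phase genes had -0.29 for *Mcm7*, -0.61 for *Rrm1*, -0.79 for *Cdc6* and -0.75 for *Tk1*. Progenitor markers had -0.70 for *Id4*, -0.64 for *Pax6*, -0.76 for *Eomes*, -1.49 for *Nhlh1*, -1.61 for *Neurog1* and -0.19 for *Elavl4*. Neuron and interneuron markers had 1.00 for *Syt4*, -0.57 for *Sox5* and 0.29 for *Lhx6*. Endothelial, microglia and red blood cell markers had 0.43 for *Kdr*, 1.04 for *Ly6c1*, 0.81 for *Flt1*, 0.61 for *C1qc* and -1.07 for *Hbb-y*. Of these, *Kdr* stood at 0.28 without *Celsr3* mutant library 2 and *C1qc* at 0.40 without *Celsr3* mutant library 1. *Hbb-y* stood at -0.62 with the replicate number as a block.

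With the replicate number as a block, *Nuf2* and *Kif20b* of the 22 and 11 of the 38 did not pass. These 11 are named in the section on processing below. None of the 22 lost the call when 1 library was left out, and 13 of the 38 did (limma adjusted p in parentheses). The *C1qc* call was lost without control library 3, *Fzd3* mutant library 1, 2 or 3 or *Celsr3* mutant library 1 (p up to 0.15). *Cdk5rap2* did not pass without control library 1, *Fzd3* mutant library 1 or 2 or *Celsr3* mutant library 1, 2 or 4 (p up to 0.14). The *Ckap5* call was lost without *Fzd3* mutant library 1 or 2 or *Celsr3* mutant library 2 or 4 (p up to 0.12). *Elavl4* did not pass without *Fzd3* mutant library 1 or 2 or *Celsr3* mutant library 2 or 4 (p up to 0.081). The *Hbb-y* call was lost without *Fzd3* mutant library 1 or 3 or *Celsr3* mutant library 1 or 4 (p up to 0.11). *Kdr* did not pass without *Fzd3* mutant library 1 or 2 or *Celsr3* mutant library 2 (p up to 0.083). The *Lhx6* call was lost without control library 1, 2 or 3, *Fzd3* mutant library 1 or 2 or *Celsr3* mutant library 2 or 4 (p up to 0.17). *Ly6c1* did not pass without *Fzd3* mutant library 1 or 2 or *Celsr3* mutant library 2 or 4 (p up to 0.11). The *Pttg1* call was lost without *Fzd3* mutant library 1 or 3 or *Celsr3* mutant library 4 (p up to 0.099). *Ska2* did not pass without *Celsr3* mutant library 4 (p 0.053). The *Smc1a* call was lost without *Fzd3* mutant library 1 or 2 or *Celsr3* mutant library 1 or 2 (p up to 0.11). *Spc24* did not pass without *Fzd3* mutant library 1 or 3 or *Celsr3* mutant library 2 (p up to 0.13). The *Tubg1* call was lost without *Fzd3* mutant library 1 or 2 or *Celsr3* mutant library 1 or 4 (p up to 0.10).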

How the results depend on the processing

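All 50 mitosis and G2/M genes were lower in *Fzd3* mutants than in controls under every alternative run but 1, and 0 were higher: without sharing of variances between genes, an alternative chosen after seeing the data, 49 passed, and *Kif20b* did not (limma adjusted p = 0.057). Leaving out each library in turn gave 50 each time, with the median log2 difference between -0.75 and -0.66 (-0.73 with all 9), and between -0.74 and -0.71 under the other alternatives. In *Celsr3* mutants limma called 0 of the 50 throughout, with medians between -0.09 and 0.03 without 1 library (-0.03 with all 9). Between the mutants, 50 were lower without any 1 library (median between -0.76 and -0.63, beside -0.69). Without sharing of variances it was 48, as *Kif20b* and *Bub1* had limma adjusted p of 0.051 and 0.053. Leaving 2 libraries in a genotype assumes that they vary like the others. Replicate numbers were also fitted as a block: same-numbered libraries had correlations from -0.20 to 0.19, with 1 pair over 0.1, so the numbers do not pair the libraries. With the block, 50 were lower in *Fzd3* mutants than in controls, 0 differed in *Celsr3* mutants (median -0.07), and 46 were lower in *Fzd3* than in *Celsr3* mutants (median -0.66), where 918 of all 14670 genes (6.26%) were lower, against 2099 without the block. *Nuf2*, *Kif20b*, *Smc2* and *Ckap2* were the 4 not called (limma adjusted p = 0.055, 0.066, 0.055 and 0.053). No other library carries the number 4, so the block left *Celsr3* mutant library 4 without weight in both comparisons with *Celsr3* mutants. Leaving out that library without a block gave 1457 of all genes lower in *Fzd3* than in *Celsr3* mutants (9.93%). The effect of the numbering is therefore not separate from the loss of that library. Of the 38 genes of other lists that differed between the mutants, 11 did not pass with the block (*Ska2*, *Spc24*, *Pttg1*, *Cdk5rap2*, *Tubg1*, *Rbbp4*, *Ckap5*, *Elavl4*, *Lhx6*, *C1qc* and *Hbb-y*, limma adjusted p from 0.054 to 0.23), and neither did 3 against control (*Cdk5rap2*, *Ckap5* and *Sp9*, from 0.060 to 0.086). Without sharing of variances, 12 and 7 calls of such genes were lost. Against control, *Cdk5rap2* and *Sp9* did not pass with equal CPM totals (limma adjusted p = 0.056 and 0.051), *Cdk5rap2*, *Sp9* and *Ly6c1* with only the 6 libraries compared (0.071, 0.068 and 0.057) and *Ly6c1* with a pseudocount of 0.1 (0.054). Between the mutants, *Lhx6* did not pass with only the 6 libraries (0.070) and *C1qc* with a pseudocount of 0.1 (0.051). The block changed no other call of the 50 genes or of the genes of other lists picked by the naming rule. The planned edgeR test on whole reads was not run, since the deposited values are CPM. No called value changed sign.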
